A study of Homo sapiens with 52 samples.

Results

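Gene expression in WI-38 fibroblasts on day 8 after a KCl treatment, named Ca2+-Sen day 8, was compared with untreated cells. The genes described are the members of the table that compares these groups: all genes whose mean normalised count over the 4 libraries was at least 10, which were 14871 of 59408 genes listed. The member nearest above that limit had a mean of 10.002, and the nearest gene below it had 9.999. The limit used levels only, and no difference between the groups. A gene that is low in 1 group could pass it through the other group, so low members are more often genes that differ.

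WI-38 is a single strain of fibroblasts from human lung tissue, and its cells stop dividing after a limited span in culture. The KCl-treated cells were kept for 24 h in medium with 75 mM KCl, washed, and cultured for a further 8 days without it. The untreated cells are young, dividing WI-38 cells, labelled wild type. In the labels the genotype of the treated cells repeats the treatment, and no altered gene is named for either group. Each group has 2 libraries, and the labels name 52 libraries in 26 groups over all treatments. There is 1 untreated group, with no day of its own, so treatment and time in culture cannot be told apart. The study describes the 2 samples of a group as independent, while neither it nor the labels say whether these were separate cultures. The p-values therefore measure the spread between such samples, pooled over untreated cells and all KCl days. They do not measure the spread of the 2 compared groups alone.

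Dividing cells keep calcium in the cytosol far below the level outside. High potassium outside the cell depolarises the plasma membrane, and calcium can then enter through voltage-gated channels and act on calmodulin, calcineurin and many kinases. In senescence, cells leave the cycle for good. CDK inhibitors such as p21 and p16 hold the RB proteins active, and genes for replication and mitosis are silenced. Lamin B1 is lost, and many senescent cells secrete cytokines, proteases and matrix proteins.

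The whole-number read counts of each library were recovered from the deposited means, since each mean was printed to 15 significant digits. The untreated libraries held 15258997 and 18971753 counted reads and the day 8 libraries 32193153 and 37089728. The other 14 Ca2+-Sen libraries (days 0, 1, 2, 3, 4, 6 and 16) held 20523987 to 51594887. The libraries of day 8 correlated with each other at r = 0.9949 across genes, those of untreated cells at 0.9916. Levels are given as normalised CPM, read counts scaled to a common library total. In every pair of values the library with fewer reads comes first. Differences are log2 differences with their standard error (SE), from 1 limma fit over all 18 libraries, and a gene is called at a Benjamini-Hochberg adjusted p under 0.05. Each difference was taken after 0.5 CPM was added to every level. A log2 difference of 1 is therefore a 2-fold change of the level plus 0.5 CPM. For genes of low level the printed differences understate the fold change in CPM itself. With 2 libraries a group, a gene that was not called is not shown to be unchanged.

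The cells carried markers of the labelled cell type. Of 14 fibroblast markers all but TWIST2 had reads in each of the 4 libraries, while TWIST2 had 1 read, in the larger day 8 library. Their summed level was 27550 and 34700 CPM in untreated cells and 33550 and 33480 CPM on day 8. Single markers moved in both directions: LUM was at 133 and 162 against 383 and 381 CPM, and PRRX1 at 89.6 and 98.8 against 70 and 69.1 CPM. The summed level of 6 endothelial markers was 107.1 and 99.57 CPM in untreated cells and 246.9 and 233.2 CPM on day 8. TEK, an angiopoietin receptor, made up nearly all of that sum, at 105 and 97.7 CPM against 245 and 232 CPM, while CDH5 and ERG had 0 reads in all 4 libraries. The 7 white blood cell markers summed to 1.115 and 1.131 CPM in untreated cells and 10.46 and 7.87 CPM on day 8. That rise was in CD14, a co-receptor for bacterial lipopolysaccharide, at 0.984 and 0.916 against 10.0 and 7.76 CPM, while CD3E had 0 reads. Epithelial markers summed to 25.05 and 26.24 against 34.47 and 32.04 CPM, neuronal markers to 9.115 and 7.543 against 11.46 and 9.517 CPM, and muscle markers to under 1 CPM in each library. In bulk RNA, fewer cells of a type and less RNA per cell cannot be told apart.

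On day 8, 3583 members (24.1%) were higher than in untreated cells and 3680 (24.7%) were lower. Most of these differences were small. The median log2 difference was 0.568 among the genes called higher and -0.473 among those called lower, and 658 and 524 of them reached a log2 difference of 1 in size. Over all members the median log2 difference was 0.00375. Of the 7263 called genes, 7257 had groups that did not overlap, so a lack of overlap adds little to a call. The plot of level against difference shows called genes at every level of expression, with the largest differences among genes of low and middle level. The results are ordered by 31 gene lists, of which 795 distinct genes were members. Counts of a list against untreated cells are to be read beside the shares of all members, 24.1% higher and 24.7% lower.

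**Figure D1:**
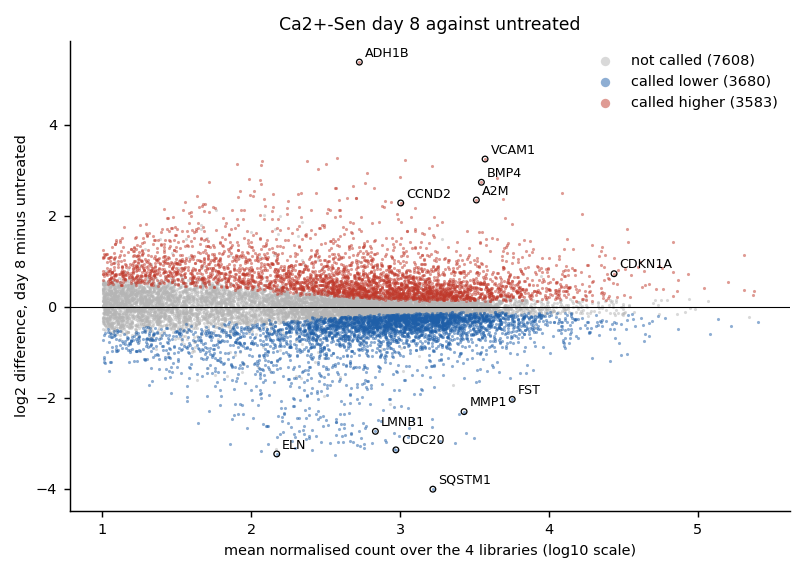
Each point is 1 of the 14871 members: the horizontal axis is the mean normalised count over the 4 libraries (log10 scale) and the vertical axis the log2 difference, day 8 minus untreated. Red points were called higher (3583), blue points lower (3680) and grey points, the rest, were not called. ADH1B stands highest, at 5.38, and SQSTM1 lowest, at -4.01, though its libraries lie far apart in other groups.

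The largest fall as a group was in genes for mitosis and cytokinesis. All 37 tested genes of this list (of 40) were lower on day 8, beside 24.7% of all members, and the median log2 difference was -2.81. CDC20, which activates the ubiquitin ligase that starts anaphase, was at 67.9 and 75.1 CPM in untreated cells and at 6.74 and 8.60 CPM on day 8. Both day 8 values lay below every other library of the series of KCl days and untreated cells, which ranged from 11.5 to 75.1 CPM. The log2 difference of CDC20 was -3.15 (SE 0.25, adjusted p = 1.78e-07). BIRC5, the survivin subunit of the chromosomal passenger complex, went from 74.1 and 64.4 CPM to 6.61 and 8.46 CPM. KIF18B, a kinesin of the spindle, was at 17.97 and 21.7 CPM in untreated cells and at 1.67 and 1.93 CPM on day 8. The log2 differences were -3.12 for BIRC5 and -3.14 for KIF18B. Also lower were NUF2 of the kinetochore (-3.10), the checkpoint kinase BUB1 (-3.05), the kinase PLK1 (-3.00) and MKI67, which codes for the Ki-67 antigen of dividing cells (-3.00). The smallest fall in this list was that of ECT2 (-0.94), which starts cytokinesis. Outside the list, PIMREG, a mitotic regulator, went from 28.1 and 28.2 CPM to 2.15 and 2.88 CPM (-3.26), and DEPDC1 and CEP55 were also among the 12 largest falls.

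Genes for DNA replication and nucleotide supply were also lower throughout. All 36 were called lower, with a median log2 difference of -1.54. RRM2, the regulated subunit of the reductase that makes deoxynucleotides, was at 132 and 146 CPM in untreated cells and at 15.3 and 20.04 CPM on day 8. The day 8 values of RRM2 were about those of day 0, since the lowest other library was at 19.6 CPM, and its log2 difference was -2.95 (SE 0.27, adjusted p = 6.15e-07). TK1, a thymidine kinase, went from 82.3 and 86.0 CPM to 10.5 and 11.8 CPM, below every other library. Its log2 difference was -2.87, followed by MCM10 at -2.80 and CDC45 at -2.64, both factors that help to fire replication origins. The sliding clamp PCNA fell least, by 0.72 on the log2 scale.

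The promoter windows of these genes are shown because both lists fell as a whole, while the short motifs in their windows differ. A window holds 250 bases before and 50 after the start of the gene, from RefSeq (GRCh38.p14). A window was found for 32 genes of each list and for 10519 of the 14871 members. The cell cycle homology region (searched as TTTGAA on both strands) was in 23 of 32 windows of the mitosis list (71.9%), in 1 of 32 of the replication list (3.12%), in 9.77% of all members' windows and in 15.2% of the 35116 windows in the table. CCAAT was in 78.1% of the mitosis windows, 59.4% of the replication windows, 36.3% of members' windows and 34.6% of all windows. An E2F motif (searched as TTCCCGCC on both strands) was in 3.12% of the mitosis windows and 31.2% of the replication windows (10 of 32), beside 5.02% of members' windows and 3.16% of all. CCAAT can share 2 bases with the end of TTCCCGCC, and a window was counted once for each motif. The windows printed below were picked for holding the motif or motifs of their list, from genes with large falls. They do not show how common a motif is in its list, and replication genes with larger falls, such as RRM2 and TK1, are not shown. In CDC20 (chr1:43358731-43359030, plus strand) and KIF18B (chr17:44947724-44948023, minus strand) capitals mark TTTGAA or TTCAAA and CCAAT or ATTGG. In CLSPN (chr1:35769929-35770228, minus strand) and GINS2 (chr16:85688905-85689204, minus strand) they mark TTCCCGCC or GGCGGGAA. CLSPN codes for claspin of the replication checkpoint, and GINS2 for a subunit of the replicative helicase. Each is written 5′ to 3′ on the strand of its gene.
CDC20: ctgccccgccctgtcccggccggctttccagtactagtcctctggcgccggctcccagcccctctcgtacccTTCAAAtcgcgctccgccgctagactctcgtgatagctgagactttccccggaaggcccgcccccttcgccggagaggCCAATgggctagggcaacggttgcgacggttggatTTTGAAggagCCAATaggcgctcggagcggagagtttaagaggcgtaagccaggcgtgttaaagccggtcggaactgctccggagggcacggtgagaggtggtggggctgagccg
KIF18B: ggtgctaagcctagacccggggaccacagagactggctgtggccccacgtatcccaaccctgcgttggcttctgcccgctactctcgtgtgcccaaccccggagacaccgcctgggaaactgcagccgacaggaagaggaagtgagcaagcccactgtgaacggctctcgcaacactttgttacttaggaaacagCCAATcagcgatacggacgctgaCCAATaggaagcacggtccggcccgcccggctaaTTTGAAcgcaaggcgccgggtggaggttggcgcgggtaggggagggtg
CLSPN: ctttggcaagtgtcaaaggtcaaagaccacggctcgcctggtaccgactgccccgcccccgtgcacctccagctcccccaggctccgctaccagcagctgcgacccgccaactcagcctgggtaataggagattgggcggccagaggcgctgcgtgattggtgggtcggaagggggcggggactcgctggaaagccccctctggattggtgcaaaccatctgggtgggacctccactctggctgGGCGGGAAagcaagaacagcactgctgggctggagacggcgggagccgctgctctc
GINS2: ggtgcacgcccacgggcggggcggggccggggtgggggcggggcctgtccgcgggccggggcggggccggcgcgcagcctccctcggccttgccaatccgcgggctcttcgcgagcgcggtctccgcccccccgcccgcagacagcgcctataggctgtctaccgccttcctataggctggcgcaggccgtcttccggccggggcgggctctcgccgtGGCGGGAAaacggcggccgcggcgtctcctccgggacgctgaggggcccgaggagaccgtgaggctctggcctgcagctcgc
The log2 differences of these genes on day 8 were -3.15 (CDC20), -3.14 (KIF18B), -2.59 (CLSPN) and -2.18 (GINS2). A match of letters is a description of the window and not a site shown to be bound.

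Of 19 tested regulators of the cell cycle, 14 were lower and 2 higher, with a median log2 difference of -1.27. MYBL2, an activator of mitotic genes, went from 26.8 and 28.6 CPM to 2.95 and 4.13 CPM. FOXM1, another activator of mitotic genes, went from 71.6 and 62.7 CPM to 9.02 and 9.63 CPM. Both lay below every other library on day 8, with log2 differences of -2.82 for MYBL2 and -2.78 for FOXM1. CCND2, which codes for cyclin D2, moved the other way, from 13.8 and 14.7 CPM to 69.6 and 72.7 CPM (log2 difference 2.28, SE 0.08, adjusted p = 1.97e-10). Day 16 was higher still for CCND2, and the day 8 values were the highest of the other days. The only other riser was RBL2 (0.54), which codes for the RB relative p130 of resting cells.

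Of 7 CDK inhibitors, 3 were called higher and 2 lower, with a median log2 difference of 0.329. CDKN1A, which codes for p21, was at 904 and 840 CPM in untreated cells and at 1432 and 1450 CPM on day 8. The groups did not overlap, but day 6 (1718 and 1494 CPM) was higher than day 8 in both libraries. The log2 difference of CDKN1A against untreated cells was 0.73 (SE 0.07, adjusted p = 8.38e-07). CDKN2A, the gene of p16 and p14ARF, was at 23.9 and 24.0 CPM against 30.2 and 30.7 CPM, a log2 difference of 0.34 (SE 0.09, adjusted p = 0.00504). CDKN2B, which codes for p15, was higher by 0.57, while CDKN2C, which codes for p18, went from 18.6 and 22.2 CPM to 3.02 and 3.46 CPM (-2.48). The other lower call, CDKN2D, which codes for p19, was at 9.18 and 8.35 CPM against 6.39 and 6.31 CPM (-0.44). It was lost without the smaller untreated library (adjusted p = 0.0785), the smaller day 8 library (0.0502) or the larger day 8 library (0.0555), which leaves 1 lower call in the list.

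Of 31 tested p53 targets, 24 were higher on day 8 and 2 lower (BAX and AEN), beside 24.1% and 24.7% of all members. Their median log2 difference was 0.504. CLCA2, a membrane protein induced by p53, was at 0.918 and 0.377 CPM against 9.15 and 9.29 CPM. Its log2 difference was 3.12, the largest of the list, followed by SULF2 (2.10), TP53INP1 (1.58) and BTG2 (1.20), an antiproliferative factor. GDF15, a stress cytokine, was at 37.1 and 40.7 CPM against 60.5 and 60.2 CPM (0.63), while its highest value in the series of KCl days was 213 CPM. MDM2, a ubiquitin ligase, was higher by 0.50. PURPL, a long noncoding RNA induced by p53, was at 1.38 and 0.593 CPM against 6.74 and 7.90 CPM (2.44).

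Of 13 genes of the nuclear lamina and HMG proteins, 12 were lower, with a median log2 difference of -1.02. LMNB1, which codes for lamin B1, was at 46.3 and 54.7 CPM against 6.42 and 7.87 CPM. Only day 0 reached as low for LMNB1, and its log2 difference was -2.74 (SE 0.24, adjusted p = 4.89e-07). Next were TMPO (-1.81), which codes for lamina-associated polypeptides, HMGB2 (-1.61) and HMGA2 (-1.56), which code for chromatin proteins. Of 16 histone genes, 7 were higher and 5 lower (median 0.140). The variants H2AZ1 (-1.64) and H2AX (-1.56) were lower, while H4C8 (1.30) and H1-2 (1.05) were higher. Histone genes resemble each other in sequence, so their counts are less certain.

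**Figure D2:**
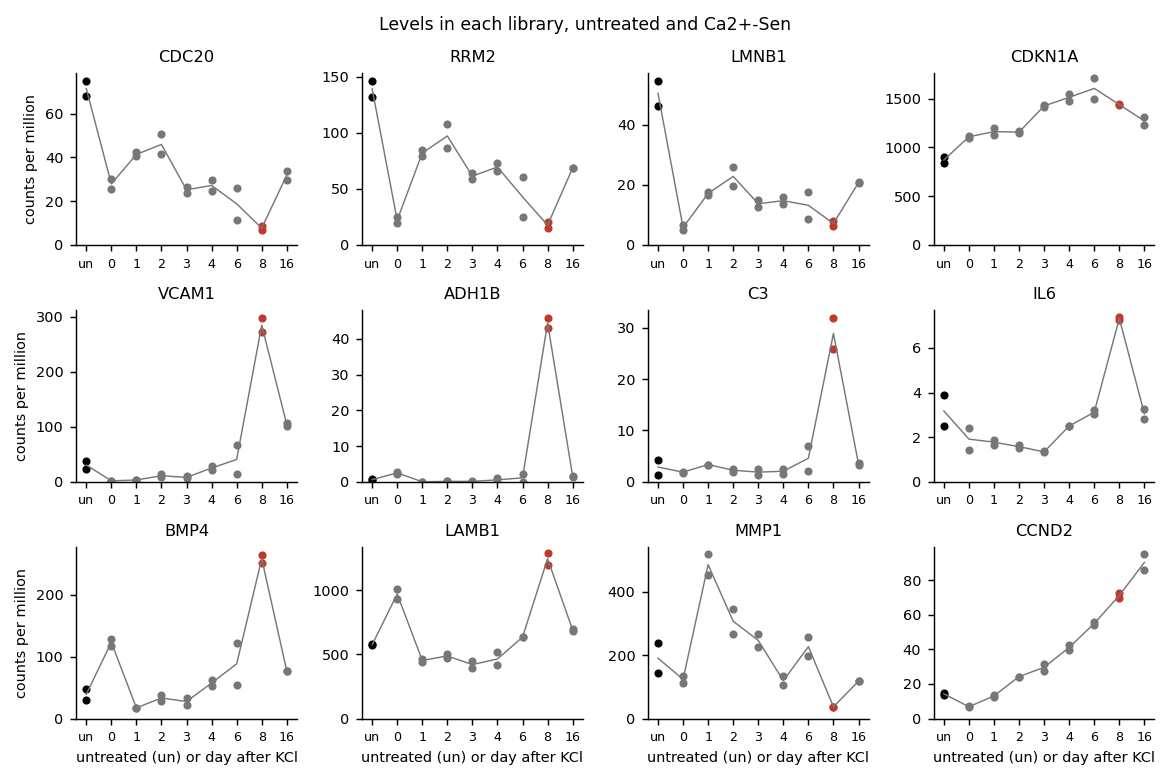
Level of 12 genes in CPM (vertical axis, from 0) in untreated cells (un, black) and on each day after KCl (grey; day 8 in red): each point is 1 library and the line joins the means of the 2 libraries. VCAM1, ADH1B, C3, IL6, BMP4 and LAMB1 reach their highest values on day 8, CDC20 and MMP1 their lowest, while CCND2 climbs on to day 16 and CDKN1A is highest on day 6.

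The largest single rise was that of ADH1B (chr4:99304971-99321401), an alcohol dehydrogenase expressed in liver, fat and some fibroblasts. ADH1B was at 0.393 and 0.808 CPM in untreated cells and at 45.8 and 43.1 CPM on day 8. No other library of the series of KCl days exceeded 2.73 CPM. The log2 difference, taken after adding 0.5 CPM, was 5.38 (SE 0.55, adjusted p = 1.75e-06). An exon of ADH1B overlaps the annotated ADH1C, and the 2 genes are close relatives. VCAM1 (chr1:100719742-100739045), an adhesion molecule for white blood cells, was at 23.0 and 37.8 CPM against 297 and 272 CPM. Both day 8 values were above every other library, of which the highest was 106 CPM, and the log2 difference was 3.25 (SE 0.49, adjusted p = 6.73e-05). Among the 12 largest rises were also TNFSF18 (3.21), a ligand of the TNF family, and ATP8B4 (3.02), a predicted lipid flippase. TMEM176B (3.22) and TMEM176A (3.10) code for related membrane proteins and share exon sequence on opposite strands. CCN4 (2.84), a secreted matricellular protein also called WISP1, was at 9.64 and 10.2 CPM against 75.2 and 73.1 CPM.

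Complement and prostaglandin genes rose as a group. Of 22 tested, 15 were higher and 2 lower (PTGFR and CD59), with a median log2 difference of 0.759, beside a background of 24.1% higher. The 15 include C1R, whose day 8 libraries were at 5.26 and 91.7 CPM and whose adjusted p was 0.229 by voom. C3, the central complement component, was at 4.33 and 1.40 CPM against 31.9 and 25.9 CPM. No other library exceeded 6.99 CPM for C3, and its log2 difference was 3.27 (SE 0.42, adjusted p = 1.76e-05), or 3.94 without the smaller and 2.6 without the larger untreated library. C1S, a protease of the first complement complex, was at 281 and 313 CPM against 861 and 797 CPM (1.48). The complement inhibitors SERPING1 (1.67) and CD46 (0.74) were higher too, while CD59, which blocks the membrane attack complex, was lower (-0.30). C4B (2.55) and C4A (2.22) are near-identical copies, so their counts are uncertain. C7, a part of the membrane attack complex and outside this list, was at 2.16 and 2.53 CPM against 25.6 and 23.8 CPM (3.15). PTGDS (1.61) and PTGES (0.95) code for prostaglandin synthases, and PTGS1 was higher by 0.30. PTGS2, which codes for COX-2, was at 2.82 and 0.970 against 1.28 and 1.56 CPM and was not called.

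Chemokines and interleukins showed the same direction. Of 38 genes of this list 18 were members, and of these 10 were higher and 2 lower, with a median log2 difference of 0.693. A low gene could pass the limit on the mean through 1 group alone, so these counts can be tilted towards genes that differ. IL6 was at 3.87 and 2.48 CPM against 7.25 and 7.40 CPM. All other libraries were at or below 3.87 CPM for IL6, and its log2 difference was 1.12 (SE 0.20, adjusted p = 0.000255). CCL2, a chemokine for monocytes, was at 38.0 and 25.5 CPM against 82.9 and 87.0 CPM (1.43). IL1R1, the interleukin 1 receptor, was at 76.1 and 61.7 CPM against 224 and 208 CPM, a log2 difference of 1.65. CXCL1 was at 1.57 and 0.162 CPM against 3.34 and 3.04 CPM, and its log2 difference of 1.65 became 2.48 without the smaller untreated library and 0.83 without the larger. CXCL10 (1.43) was higher at a low level, and CSF1 (0.88) and LIF (0.78) at higher ones. IL11 moved the other way, from 39.0 and 36.0 CPM to 10.6 and 13.4 CPM (-1.62). CXCL8 was at 8.85 and 1.29 CPM against 3.79 and 3.32 CPM, so its untreated libraries lay on either side of day 8, and it was not called.

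Of 37 tested genes of NF-kB signalling and the interferon response, 16 were higher and 1 lower (BIRC3), with a median log2 difference of 0.421. ICAM1, an adhesion molecule, was at 57.9 and 76.2 CPM against 135 and 133 CPM (1.01). Among the 16 were IFI6 (1.72), IFIT1 (1.44), IFIT3 (1.22) and IFIH1 (1.20), which interferon induces, and 20 genes of the list were not called. For IFIT1 the libraries of a group were far apart, at 10.5 and 16.3 CPM in untreated cells and 28.5 and 46.4 CPM on day 8. The NF-kB subunits NFKB1 (-0.10) and RELA (0.02) and the inhibitor NFKBIA (-0.07) were not called.

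Matrix genes moved in both directions. Of 25 collagen chains, 10 were higher and 6 lower (median 0.148), but without the smaller untreated library 5 were called higher. COL14A1, a collagen on the surface of fibrils, was at 7.80 and 8.46 CPM against 32.0 and 30.0 CPM (1.87, SE 0.34, adjusted p = 0.000317). The pairs of type IV collagen, which form basement membranes, split: COL4A5 (1.40) and COL4A6 (1.51) were higher, while COL4A1 (-1.12) and COL4A2 (-1.06) were lower. COL3A1 (0.87) and COL6A1 (0.73) were higher, and COL1A1 was at 10480 and 13410 CPM against 9266 and 9438 CPM (-0.34). Of 25 laminins and integrins, 10 were higher and 8 lower (median 0.0705). LAMB1, a laminin chain, was at 577 and 571 CPM against 1293 and 1198 CPM, a log2 difference of 1.12, and LAMA4 (1.11) moved with it. The integrin subunit ITGB8, which releases active TGF-beta, was higher by 1.98, while ITGA6 (-1.05) and ITGA10 (-1.62) were lower. Exons of LAMB1 overlap DLD on the opposite strand.

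Of 29 genes for elastic fibres, proteoglycans and matricellular proteins, 11 were higher and 7 lower (median 0.0272), beside 24.1% and 24.7% of all members. ELN, which codes for elastin, went from 14.8 and 8.73 CPM to 0.770 and 0.754 CPM, a log2 difference of -3.24 (SE 0.28, adjusted p = 4.09e-07). The small proteoglycans LUM (1.38) and DCN (0.79) were higher, and TNC (-0.65), which codes for tenascin C, was lower. Of 21 matrix proteases and their inhibitors, 7 were higher and 7 lower (median -0.111). The collagenase MMP1 (chr11:102789919-102798160) was at 239 and 142 CPM against 36.4 and 37.2 CPM. No other library was below 106 CPM for MMP1, and its log2 difference was -2.31 (SE 0.20, adjusted p = 4.26e-07). The stromelysins MMP3 (-2.98) and MMP10 (-2.55) were lower too. MMP10 was at 6.03 and 1.24 CPM in untreated cells, and its difference became -1.6 without the smaller untreated library and -3.51 without the larger. ADAMTS5 (2.04) and ADAMTS1 (1.23), which cut aggrecan and versican, and PLAT (1.31), a plasminogen activator, were higher. GAL, a neuropeptide precursor, went from 13.0 and 7.33 CPM to 0.738 and 0.782 CPM (-3.03). A2M, a broad protease inhibitor outside this list, was at 48.9 and 41.2 CPM against 231 and 229 CPM (2.35).

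Secreted signals also split. Of 32 genes of TGF-beta, BMP and WNT signalling, 12 were higher and 9 lower (median 0.0434). BMP4 was at 30.8 and 47.7 CPM against 265 and 251 CPM, above every other library, of which the highest was 129 CPM. The log2 difference of BMP4 was 2.74 (SE 0.29, adjusted p = 2.32e-06). The activin inhibitor FST went from 394 and 375 CPM to 86.3 and 101 CPM (-2.04), and the WNT inhibitor DKK1 was at 87.6 and 80.3 CPM in untreated cells and at most 13.8 CPM on day 8 (-2.66). FST and DKK1 were below every other library on day 8. ID1, a target of BMP signalling, was at 81.4 and 35.5 CPM against 13.0 and 12.7 CPM (-2.02), or -1.43 without the smaller and -2.62 without the larger untreated library. Of 32 growth factors and their regulators, 14 were higher and 11 lower (median 0.0961). IGFBP2 (1.66), PDGFD (1.55), IGFBP5 (1.13) and FGF7 (0.88) were higher, and the EGF family member HBEGF (-1.84) and FGF5 (-1.44) were lower.

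Of 50 tested genes of calcium handling and calcineurin feedback, 15 were higher and 15 lower, near the 24.1% and 24.7% of all members, with a median log2 difference of -0.0579. ITPR1, a receptor that lets calcium out of the endoplasmic reticulum, was at 7.93 and 8.57 CPM against 25.2 and 23.1 CPM. Both day 8 values of ITPR1 were the highest of all libraries, and its log2 difference was 1.49 (SE 0.12, adjusted p = 2.03e-07). ITPR2 (0.98), the calcium sensor STIM1 (0.52) and the channel subunit ORAI3 (0.98) were higher, while ITPR3 (-0.78), the calcium exchanger SLC8A1 (-0.90) and the pump ATP2B1 (-0.32) were lower. The kinase CAMK1D was higher by 1.38 and the calcineurin regulator RCAN2 by 1.04. RCAN1, whose short form is induced by calcineurin, was at 143 and 129 CPM against 126 and 135 CPM and was not called. The voltage-gated channel genes CACNA1A (0.74) and CACNA1G (0.73) were called higher, the second at 0.590 and 0.593 against 1.22 and 1.40 CPM. S100A4, a calcium-binding protein, was lower by 1.01. The core of the NFAT motif (GGAAA on both strands) was in 20 of 39 windows of this list (51.3%), beside 58.1% of members' windows and 61.2% of all.

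Of 26 genes of potassium, sodium and chloride transport and osmotic response, 9 were higher and 12 lower (median -0.0406). KCNQ5, a potassium channel, was at 11.6 and 12.4 CPM against 1.64 and 2.37 CPM, below every other library (-2.34). KCNK2 (-1.45) was lower, and KCNJ2 (1.31) and the taurine transporter SLC6A6 (1.35) were higher. The sodium pump beta subunits ATP1B1 (-1.09) and ATP1B3 (-0.67) were lower. Of 33 genes of ESCRT, annexins and membrane repair, 8 were higher and 10 lower (median -0.116), near the 24.1% and 24.7% of all members. In this list 16 were lower when libraries were scaled by their totals. ANXA2 was at 2285 and 2220 CPM against 1471 and 1524 CPM (-0.59), and ANXA1 (-0.64) and the caveolar coat gene CAVIN1 (-0.65) moved with it. CHMP4B, an ESCRT subunit, was at 129 and 128 CPM against 126 and 127 CPM and was not called. ALG2, higher by 0.27 and tested as part of this list, codes for a sugar transferase of N-glycan synthesis. It does not code for the repair protein of similar name.

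Of 27 immediate early genes and genes of their feedback, 5 were higher and 9 lower (median -0.266), beside 24.1% and 24.7% of all members. FOSL1, an AP-1 subunit, was at 211 and 206 CPM against 65.2 and 67.3 CPM, below every other library, with a log2 difference of -1.65 (SE 0.05, adjusted p = 2.75e-11). DUSP1, a phosphatase that ends MAP kinase signals, was lower by 1.31 and KLF2 by 1.94, while SPRY1 was higher by 1.16. Of 30 actin, contractile and YAP target genes, 16 were lower and 4 higher (median -0.264). ACTG1 was at 6467 and 5773 CPM against 4050 and 3976 CPM (-0.61), AXL was lower by 0.90, and the smooth muscle activator MYOCD was higher by 1.18.

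Stress and protein quality genes were not raised as a group. Of 23 heat shock and proteasome genes, 15 were lower and 0 higher (median -0.407). HSPD1, a mitochondrial chaperone, was at 370 and 390 CPM against 198 and 214 CPM (-0.88), and its neighbour HSPE1, with which it overlaps, was lower by 0.77. The cytosolic chaperones HSPA8 (-0.43) and HSP90AA1 (-0.49) and the proteasome subunit PSMD14 (-0.66) were lower. Of 21 genes of the unfolded protein response, 4 were higher and 9 lower (median -0.149), with SDF2L1 at -0.65 and SEL1L at 0.42. Of 30 ATF4 targets and amino acid genes, 6 were higher and 8 lower (median 0.0157), near the 24.1% and 24.7% of all members. ATF3 (0.92) and the tRNA synthetase WARS1 (1.27) were higher and the amino acid transporters SLC7A1 (-1.28) and SLC7A5 (-1.12) lower. Without either the larger untreated or the smaller day 8 library 5 of the ATF4 list were lower. Of 23 NRF2 and metallothionein genes, 7 were higher and 8 lower (median -0.0211), or 5 lower without the smaller untreated or the smaller day 8 library. The ferritin genes FTL (0.76) and FTH1 (0.72) were higher, the metallothioneins MT2A (-1.46) and MT1E (-1.54) lower, and the 3 relatives AKR1C1, AKR1C2 and AKR1C3 were higher by 1.66, 2.40 and 2.09 but share sequence.

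Lysosomal genes leaned upwards, with 18 of 30 higher and 3 lower (median 0.374), beside 24.1% and 24.7% of all members. The 3 include SQSTM1, whose libraries lay far apart in other groups and whose adjusted p was 0.0727 by voom. GAA, the lysosomal glucosidase, was at 65.9 and 79.3 CPM against 148 and 149 CPM (1.03), ASAH1 was higher by 0.91, TPP1 by 0.90 and GLB1, the gene of beta-galactosidase, by 0.48. Of 29 cholesterol and fatty acid genes, 4 were higher and 5 lower (median -0.097), below the 24.1% and 24.7% of all members. SREBF2, a regulator of the pathway, was at 0.66 and FASN at -0.48. Of 28 genes of glycolysis and the hypoxia response, 6 were higher and 9 lower (median -0.0294), beside 24.1% and 24.7% of all members. The mitophagy receptor BNIP3L was higher by 1.22 and the glycolytic enzymes ENO1 and PFKP lower by 0.79 and 0.86 on the log2 scale. Of 25 respiratory chain genes, 4 were higher and 10 lower (median -0.128), or 6 lower without the smaller day 8 library. PPARGC1A, a coactivator of mitochondrial genes, was at 0.197 and 0.215 CPM against 1.41 and 1.00 CPM (1.26), while TFAM, which maintains mitochondrial DNA, was lower (-0.49). Of 14 members of the BCL2 family, 4 were higher and 5 lower (median -0.0707), beside 24.1% and 24.7% of all members. BCL2L11, which codes for the death activator BIM, was at 0.984 and 1.02 CPM against 4.75 and 4.61 CPM (1.78), and PMAIP1 was lower (-0.63). Of 15 long noncoding RNAs, 8 were higher and 5 lower (median 0.134): NEAT1 was higher by 1.30, and MIR31HG (-1.37) and MIR155HG (-1.37) were lower.

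**Figure D3:**
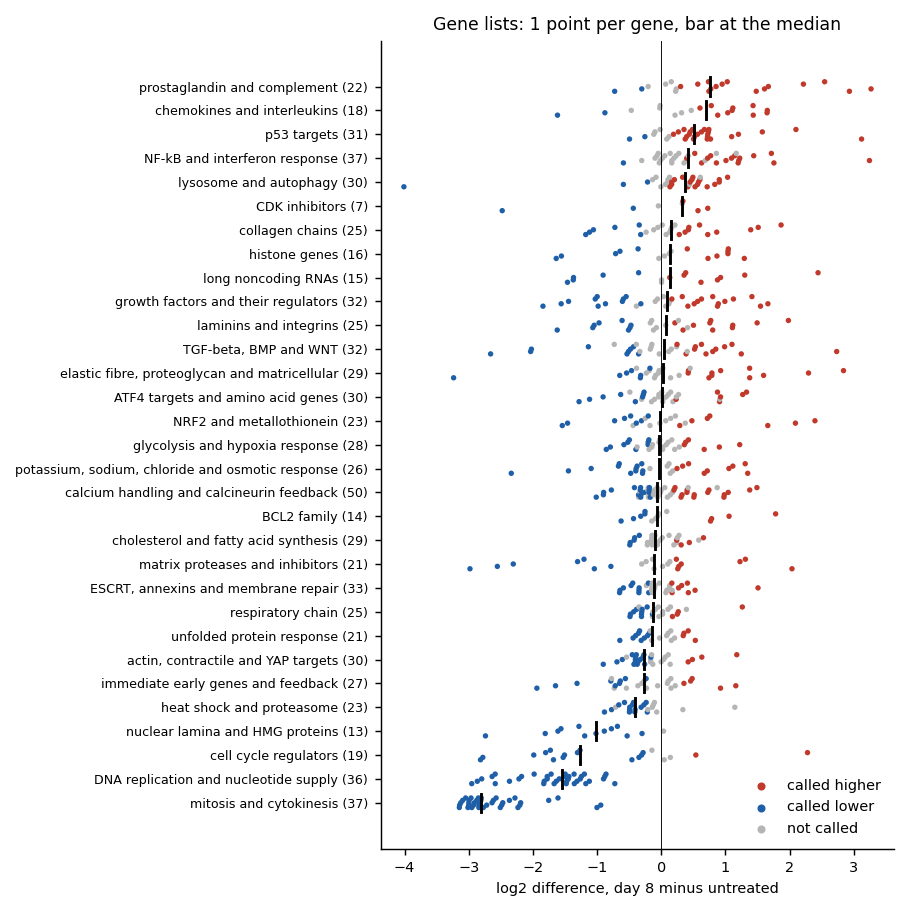
Each row is 1 gene list with the number of tested members in brackets, and each point 1 gene at its log2 difference, day 8 minus untreated (horizontal axis); red was called higher, blue lower, grey not called, and the bar is the median. Every gene of the mitosis list and of the replication list lies left of 0, with medians of -2.81 and -1.54, and the prostaglandin and complement list has the highest median, at 0.759.

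For some genes the 2 libraries of a group differed far more than usual. Of 10663 members with a mean of at least 100, 70 had libraries of 1 group apart by a log2 of at least 2 in 1 or more of the 9 groups. SQSTM1, which codes for the autophagy receptor p62, was at 126 and 139 CPM against 8.12 and 7.37 CPM. Its log2 difference was -4.01 (SE 1.26, adjusted p = 0.0159), but libraries of 4 groups differed by at least 2 on that scale, and the adjusted p was between 0.0547 and 0.0649 without any 1 of the 4 libraries. SQSTM1 overlaps MGAT4B and MRNIP on the opposite strand. C1R, a complement protease next to C1S, was at 3.15 and 1.99 CPM against 5.26 and 91.7 CPM, and without the larger day 8 library its log2 difference of 2.93 became 0.935 (adjusted p = 0.334). GSDMD, a pore protein, was at 8.46 and 9.97 CPM against 0.513 and 0.642 CPM (-3.17, adjusted p = 0.0192), which became 0.0588 to 0.0806 when any 1 library was left out. CDK7, a kinase of transcription and the cell cycle, was at 0.721 and 0.377 CPM against 6.93 and 11.9 CPM (3.21, adjusted p = 0.00461), with the libraries of day 2 apart by 3.37 on the log2 scale and an adjusted p of 0.0777 by voom. The cause of these gaps was not tested. An exon of 69 of the 144 named genes found in the GENCODE annotation overlaps another gene, mostly on the opposite strand. Whether strand was used in counting is not given in the sources used here, so the reads of such pairs cannot be told apart.

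Day 8 stood apart from the days around it. Each KCl day was sampled as a single group, without untreated cells of that day. A change with time therefore cannot be told apart from the culture or handling of the samples of a day. Both day 8 libraries were above the other 16 libraries at 1724 members (11.6%) and below them at 1687 (11.3%). Among the other groups, day 0 was outside the rest at more genes (3604 above and 3650 below), while day 6 was so at 192 and 133 genes and day 16 at 146 and 101. In the mitosis list 24 of 37 genes were lowest on day 8, in the heat shock and proteasome list 14 of 23. On the high side were 12 of 22 complement and prostaglandin genes, 10 of 18 chemokines and interleukins, 11 of 25 collagens and 11 of 37 NF-kB and interferon genes. These are counts of order only, and they carry no test. The limit on the mean used the day 8 and untreated libraries alone. A gene high only on day 8 could pass it, while a gene high only on another KCl day could be left out. Day 8 and the other KCl days are therefore not compared on equal terms in these counts. Relative to untreated cells, the mitosis list had a median log2 difference of -1.92 at day 6 and -1.08 at day 16, against the -2.81 of day 8. The chemokine list had -0.19 and -0.108 at those days, against 0.693, and the complement list 0.0336 and 0.147, against 0.759.

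**Figure D4:**
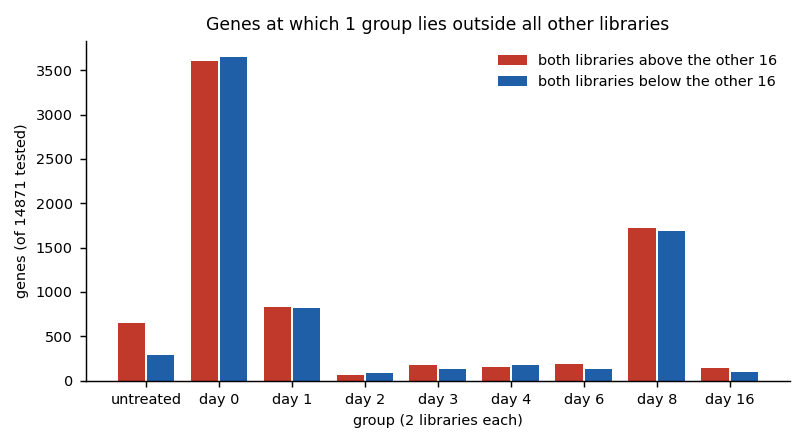
Number of members (vertical axis, of 14871) at which both libraries of a group were above (red) or below (blue) the other 16 libraries, for untreated cells and each KCl day. Day 8 has 1724 and 1687 such genes, the most after day 0, while days 2 to 6 and day 16 have at most 192 in either direction. Members were chosen by levels in day 8 and untreated libraries, so genes high only on another KCl day could be left out.

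To see where day 8 differs from its neighbours, it was tested against days 6 and 16 in the same fit. Against day 6, 2152 members (14.5%) were higher on day 8 and 2260 (15.2%) lower, of which 328 and 101 reached a log2 difference of 1 in size. The share higher among the called genes was 48.8%, or 38.7% with libraries scaled by totals (1812 higher and 2872 lower) and 36.1% with scaling by the upper quartile (1637 and 2894). Against day 16, 2222 members (14.9%) were higher on day 8 and 2467 (16.6%) lower, of which 215 and 214 reached a log2 difference of 1. These comparisons share the day 8 libraries with each other and with that against untreated cells. Members were chosen by levels on day 8 and in untreated cells, so genes high only on day 6 or day 16 could be left out. The 2 libraries of day 6 differed more than those of any other group, by a median log2 of 0.158 in size against 0.0793 on day 8. The larger day 6 library lay nearer to day 8 at 63.2% of the genes called higher and 61.6% of those called lower. With only the 4 libraries of days 6 and 8, 1014 were higher and 729 lower.

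ADH1B led the rises against both days, with 0.0370 and 2.15 CPM on day 6 and 1.39 and 1.74 CPM on day 16 (log2 differences 5.24 and 4.45). VCAM1 was at 14.2 and 66.8 CPM on day 6 and 101 and 106 CPM on day 16, with log2 differences of 3.18 (adjusted p = 0.000266) and 1.45 (adjusted p = 0.0345). The day 6 libraries of each of these 2 genes were more than 2 apart on the log2 scale. Without the smaller day 6 library the log2 difference from day 6 was 4.08 for ADH1B, 2.08 for VCAM1 and 2.29 for COL14A1, and without the larger it was 6.39, 4.28 and 3.86. PLXNC1, a semaphorin receptor, was at 2.55 and 5.71 CPM on day 6, and 37.3 and 34.1 CPM on day 8, and its log2 differences from days 6 and 16 were 3.05 and 1.65. COL14A1 was at 1.67 and 5.93 CPM on day 6 and 7.67 and 10.3 CPM on day 16 (3.08 and 1.75). The chemokine CXCL12 was at 5.33 and 5.04 CPM on day 6, 30.2 and 24.1 CPM on day 8 and 4.70 and 5.50 CPM on day 16. Its log2 differences were 2.28 and 2.30, while against untreated cells (18.9 and 16.3 CPM) it was 0.60. A2M was at 122 and 78.6 CPM on day 6 and 34.2 and 35.1 CPM on day 16 (1.23 and 2.71). DEPP1, a target of FOXO factors, was higher than on day 16 by 2.36.

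Among the largest falls, MMP1 was at 257 and 196 CPM on day 6, 36.4 and 37.2 CPM on day 8 and 117 and 118 CPM on day 16 (-2.59 and -1.66). FLII, an actin regulator whose exons overlap LLGL1, was at 24.0 and 53.1 CPM on day 6, 2.89 and 3.99 CPM on day 8 and 32.0 and 48.0 CPM on day 16 (-3.22 and -3.35). KCNQ5 was at 14.2 and 7.44 CPM on day 6 and 10.6 and 11.2 CPM on day 16 (-2.12 and -2.21). Both day 8 values lay below every other library for MMP1 and KCNQ5, but not for FLII. FLII was also at 4.60 and 3.58 CPM on day 3, and its day 2 libraries were at 13.9 and 52.55 CPM. CEP55, which acts in the last step of cell division, was at 21.9 and 20.4 CPM on day 16 against 3.79 and 5.64 CPM on day 8 (-2.08, adjusted p = 2.9e-05). STING1, a sensor adaptor, was lower than on day 6 by 3.22 (adjusted p = 0.0311), but its libraries differed by at least 2 on the log2 scale in 4 groups and the call was lost without any 1 of the 4 libraries (0.0783 to 0.144).

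The shares of all members lower on day 8 were 16.6% against day 16 and 15.2% against day 6. All 37 genes of the mitosis list were lower on day 8 than on day 16 (median -1.68), and 32 of 36 of the replication list (median -0.719). Against day 6, 27 mitosis genes were lower (median -0.824), but only 10 without the larger day 6 library, 8 without the smaller day 8 library and 1 with just these 4 libraries in the fit. The day 6 libraries of CDC20 were 1.14 apart on the log2 scale, as far as its difference from day 8. Of the replication list 16 were lower than on day 6 (median -0.375), with 31 called without the smaller day 6 library, and 4 without either the larger day 6 or the smaller day 8 library.

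Among all members, 14.5% were higher on day 8 than on day 6 and 14.9% higher than on day 16. Of 25 collagens, 17 were higher than on day 6 (median 0.430) and 15 higher than on day 16 (0.382), with 1 lower in each. Without the smaller day 6 library 10 were higher than on day 6, and without the larger day 8 or the larger day 16 library 8 and 9 were higher than on day 16. COL6A3 (1.05 and 0.85), COL4A6 (1.10 and 1.39) and COL15A1 (1.41 and 1.13) were among them, COL6A3 and COL15A1 with no call against untreated cells. Chemokines and interleukins were higher at 12 of 18 against day 6 (median 0.823) and at 11 against day 16 (0.873), or 6 without the smaller day 8 library. Complement and prostaglandin genes were higher at 17 of 22 (0.711) and 14 (0.634). The 17 include C1R, whose day 8 libraries lay far apart. The NF-kB and interferon list was higher at 19 of 37 (0.504) and 14 (0.408). Of these 19, 8 were left without the smaller day 6 library and 10 without the larger day 8 library, in the count of calls. Of the 14, without the smaller day 8 library 7 were called, and 4 without the larger day 8 or the larger day 16 library.

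Among all members, 15.2% were lower on day 8 than on day 6 and 16.6% lower than on day 16. Heat shock and proteasome genes were lower at 15 of 23 against day 6 (median -0.307) and 9 against day 16 (-0.205). Cholesterol and fatty acid genes were lower at 18 of 29 against day 16 (-0.380), or 9 without the smaller day 8 library and 8 without the larger day 16 library. HMGCS1 (-0.60) and MSMO1 (-0.83), enzymes of sterol synthesis, were among those lower than on day 16. Against day 6, 7 were lower and 1 higher, and leaving out 1 library gave between 1 and 15 lower. The p53 targets were higher than in untreated cells. Against day 6 they were higher at 8 of 31 and lower at 4 (median 0.0121), beside 14.5% and 15.2% of all members. CDKN1A itself had a log2 difference of -0.15 against day 6 (adjusted p = 0.107) and 0.18 against day 16 (adjusted p = 0.0548), and neither was called.

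**Figure D5:**
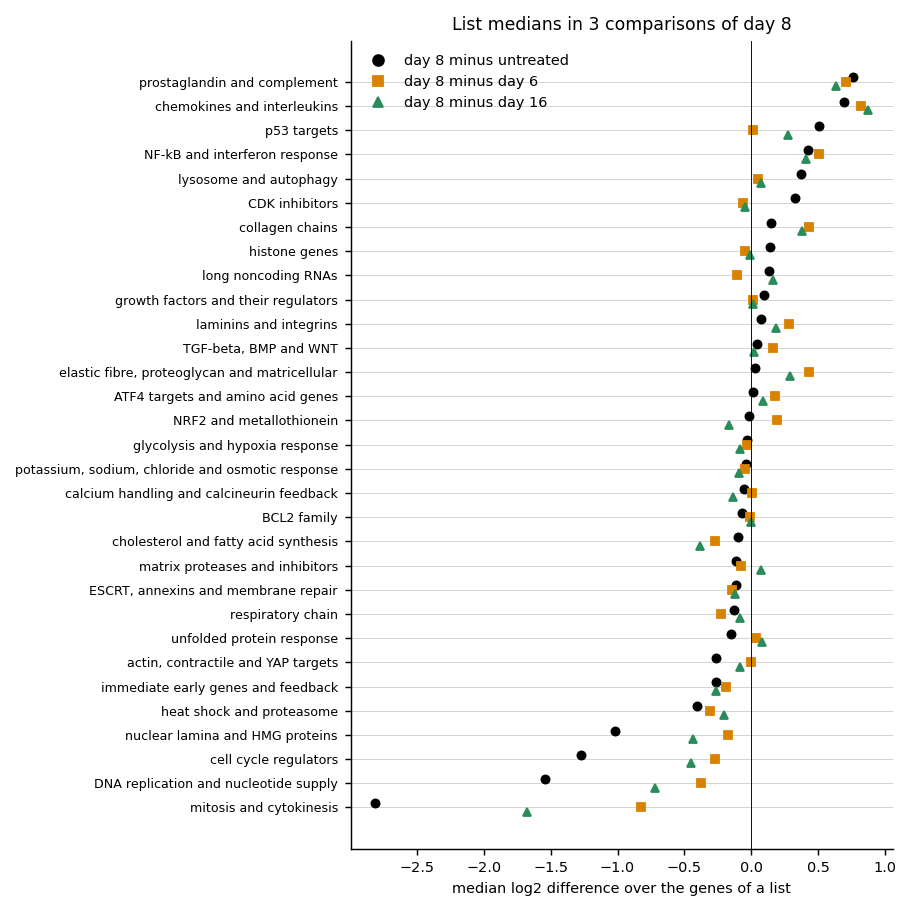
Median log2 difference of each gene list (horizontal axis) for day 8 minus untreated (black circles), minus day 6 (orange squares) and minus day 16 (green triangles); the day 8 libraries are shared by all 3. The chemokine, complement and NF-kB lists lie right of 0 and the mitosis and replication lists left of 0 in all 3 comparisons, while p53 targets are near 0 against day 6 (0.0121).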

How the data were processed

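RNA of WI-38 cells was sequenced, and the authors trimmed reads with Trim Galore, aligned them with HISAT2, counted them with HTSeq or featureCounts and compared groups with DESeq2 (build GRCh38). The deposited tables give, per gene, a mean normalised count (a signal: count divided by a size factor, averaged over the 4 libraries of 2 groups), beside the authors' own fold changes and p-values, which were not used. The 8 KCl tables share the untreated libraries, and their means, printed to 15 significant digits, were solved together for whole reads in 18 libraries. The largest distance of a rebuilt mean was 0.759 units of its last digit, and 0 reads came out negative. The solution gives no replicate numbers. One row that names no gene was left out.

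Counts were scaled by the median of ratios and tested as log2(CPM + 0.5) with limma 3.58.1 (trend, 9 groups, 9 residual degrees of freedom) and Benjamini-Hochberg adjustment over 14871 members. The steps were tested on simulated data. Design and tests were written for normalised values, since counts are not among the deposited columns. Named genes were 7 genes of the study's interest, the 12 largest rises and falls against untreated cells and 5 against days 6 and 16 (called, mean of at least 100, groups apart), and up to 4 a list. Some genes this rule picked are not reported here, and other genes were named after their values were seen. Members and lists were chosen with earlier results of these data known. Alternatives were other scalings, voom, other limits on the mean, a log2 difference of 1, only the 4 libraries compared and leaving out each library.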

Additional observations from a re-analysis of the deposited data

How the results depend on the processing

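No paired analysis was possible because the recovered libraries carry no replicate number. Requiring a log2 difference of 1 in size left 658 higher and 524 lower against untreated cells, 328 and 101 against day 6, and 215 and 214 against day 16. With libraries scaled by their totals, 3295 were higher and 4052 lower than in untreated cells. With only the 4 libraries compared, 1014 were higher and 729 lower than on day 6. Leaving out 1 library gave 2710 to 3246 higher and 2840 to 3283 lower against untreated cells, 1287 to 2040 and 1159 to 2340 against day 6, and 1177 to 1442 and 1358 to 1796 against day 16. The lowest counts against days 6 and 16 came without the smaller day 8 library (1287 and 1159, and 1177 and 1358). Against day 16, 1442 were higher without the larger day 8 library and 1431 without the smaller day 16 library, and 1365 higher and 1461 lower without the larger day 16 library. Of 2087 values of single genes under alternatives, 2004 kept their direction and side of the threshold, 83 lost the call and 0 reversed. Of 2418 counts of calls in the gene lists under alternatives, 1930 stayed within 1.5 times of the reported count and 488 did not. With 2 libraries a group the spread rests on 9 residual degrees of freedom, and small differences of low genes cannot be resolved. The cause of these changes was not tested.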
